A study of Danio rerio with 8 samples.

Results

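The genes described here were 2- to 4-fold lower in zebrafish tail tissue exposed to benzo[k]fluoranthene (BkF) than in control tissue at every one of 4 time points. They were chosen by those values, from the deposited table of normalized counts. A gene was taken where its mean over the 8 samples was 50 or more and its log2 ratio of BkF to control, on values plus 1, was above -2 and at most -1 at each time. Of 24345 gene identifiers, 19143 had that mean; 262 of these, 1.37%, had a ratio at or below -1 at every time, and 121, 0.632%, met the whole rule. From the 121, 11 genes were dropped because their symbols begin with letters of keratin, collagen, forkhead, integrin and other families, among them krt5, krt15, col17a1a, ITGB3, LOXHD1 (ENSDARG00000094738) and CXCR4 (ENSDARG00000057633). The remaining 110 members comprise 75 with a gene name, 14 with a clone name and 21 with no symbol. A symbol in capitals is the one the name table gives to a zebrafish gene. Since the rule used the BkF to control ratio, that ratio is given for members as a description, with no test.

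The tissue was the distal trunk of wildtype larvae of the Tropical 5D line. Control animals were kept in 1% DMSO, the solvent, and exposed animals in 12 µM BkF, from 6 to 8 hours post fertilization (hpf) on, and tissue was taken at 48, 60, 72 and 96 hpf. The chorion, the egg envelope, had been removed from all animals at 4 hpf. There are 8 samples, 1 per treatment and time, and in each the authors averaged 4 biological replicates, every replicate a pool of 50 animals. The series title ties the aryl hydrocarbon receptor (AHR), a transcription factor that polycyclic aromatic hydrocarbons such as BkF activate, to the duplication of a fin.

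Values of single replicates were not analysed here, so no member has a replicate error. The error beside a mean log2 ratio is the SD over the 4 time points (n = 4), which are not replicates. Normalized counts summed to 87750209 to 89533865 in the controls and to 76456319 to 78634021 in BkF, and the read depth is unknown. Markers of muscle, epidermis, fin fold, notochord and neurons were present. The fin gene hoxa13b stood at 6399.7 to 6863 in controls. There the liver gene fabp10a stood at 8.65 to 15.2, the insulin gene ins at 0.96 to 3.28 and the cone gene gnat2 at 8.71 to 20.6. Not all such genes were that low. Over the controls, the liver gene tfa ranged from 151 to 314 and the pancreas gene cpa1 from 50.9 to 232. At 48 hpf the liver genes tfa, ambp and serpina1 had 605, 72.4 and 104 in BkF, against 151, 17.9 and 0 in the control. At 60 hpf tfa had 970 in BkF against 181 in the control, while ambp had 18.5 against 65.9. At 96 hpf tfa and ambp were lower in BkF, with 31.3 and 13.3 against 314 and 26.6. Over the BkF samples fabp10a ranged from 3.54 to 7.84. Whether tissue from outside the dissection entered a sample was not tested.

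The larval tail is covered by a thin epidermis over a fin fold, which is stiffened by actinotrichia, fibres of collagen and actinodin proteins. Clusters of mechanosensory hair cells of the lateral line sit in this skin. Each hair cell has a bundle that senses water movement and a ribbon synapse at which otoferlin, a calcium sensor, serves the release of transmitter onto nerve endings. Prostaglandins and leukotrienes, lipids made from arachidonic acid, signal between skin cells and leukocytes through receptors coupled to G proteins.

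The members' mean log2 ratios ran from -1.85 to -1.10 with a median of -1.40, which is a fold of control over BkF of 2.14 to 3.61 with a median of 2.63. The median ratio of the members was -1.27, -1.34, -1.43 and -1.44 at 48, 60, 72 and 96 hpf. Over all genes with a mean of 50 or more the median was 0.00, 0.01, 0.01 and 0.00. The ratio was lowest at 48, 60, 72 and 96 hpf in 16, 26, 27 and 41 members, and it was lower at 96 than at 48 hpf in 70 of 110. It became lower at each successive time in 18 members, among them CA6, lamb4, VIT, HPGD and DLX1, and higher at each successive time in 4. The shares of all genes with such courses are not given here, so these counts are not read as a trait of the members. The range of the ratio over the 4 times was 0.05 to 0.93 with a median of 0.43, and it was under 0.2 in 14 members. Rescaling every sample to the same total raised the ratio of the median gene by 0.18 (log2). With it only 58 genes met the rule, and these held 46 of the 110 members, so membership of most of the set depends on the scale.

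At the edge near -1, the members whose highest ratio lay just inside were ENSDARG00000088866 at -1.002, cusr at -1.007 and F2R (ENSDARG00000086236) at -1.007. Just outside were FAT3 at -0.998, zgc:158423 at -0.991 and LPAR6 at -0.990. At the edge near -2, the lowest ratios just inside were -1.99 in each of ENSDARG00000091626, si:ch211-202f3.4 and lamb4. Just outside were si:dkey-117n7.5 at -2.003, pjvk at -2.01 and FADS3 at -2.03. At the edge of the mean, the members at 57.3, 59.1 and 59.3 were ENSDARG00000088866, si:dkey-13m1.5 and POU4F3, and the genes left out stood at 46.3, 45.9 and 44.0. The gene pjvk, known in mammals for its part in hearing, and several members thus lay close to an edge.

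**Figure D1:**
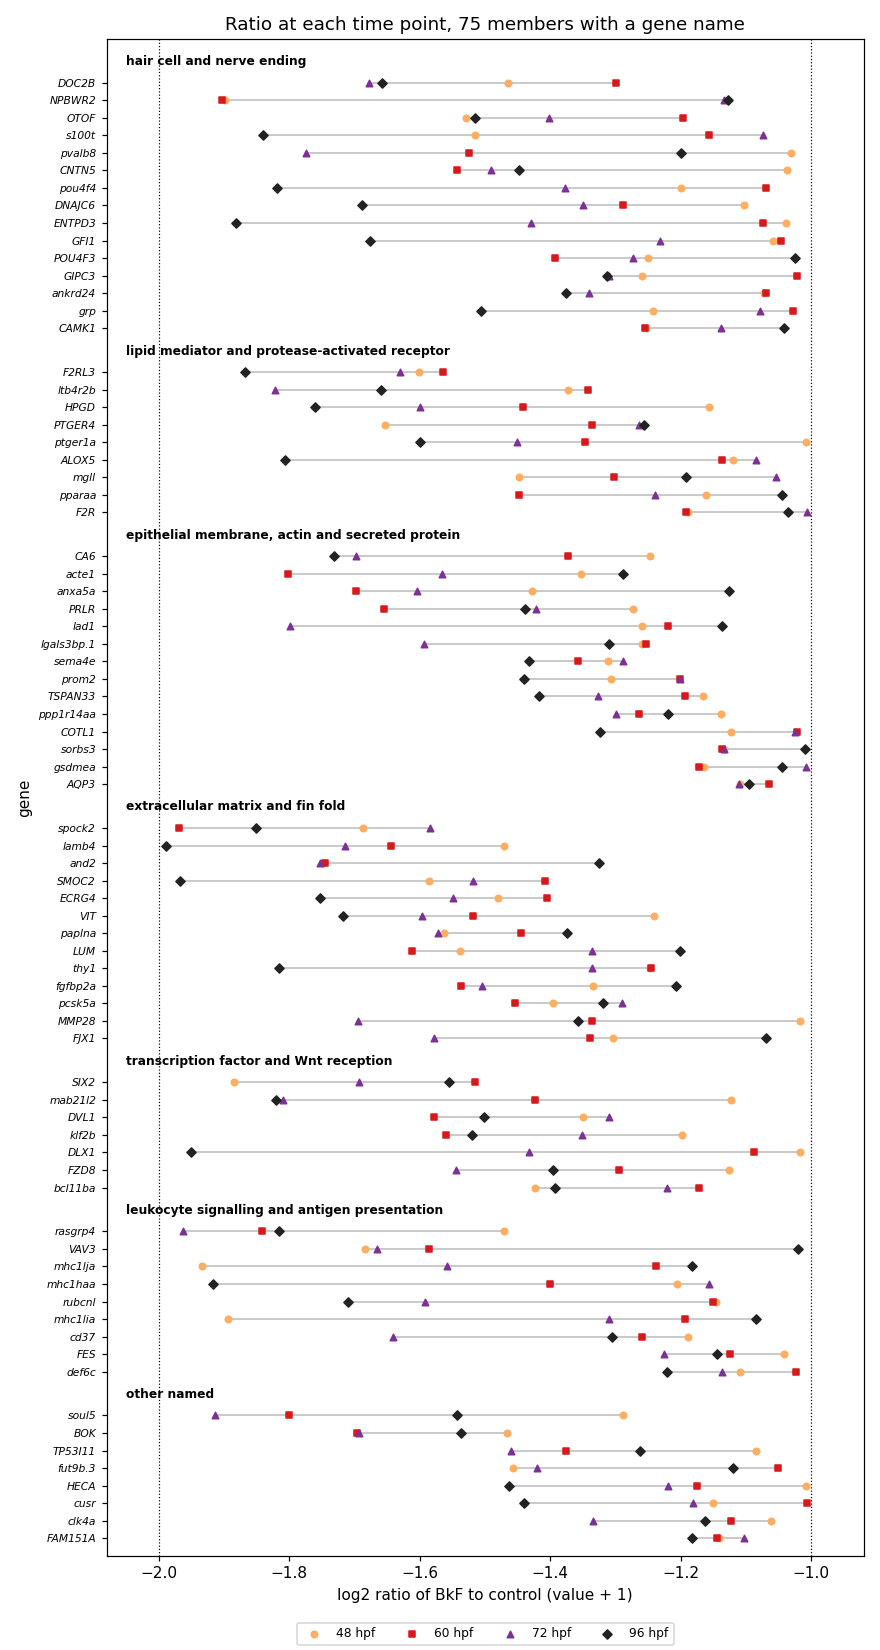
Log2 ratio of BkF to control (on value + 1) at 48, 60, 72 and 96 hpf for the 75 members with a gene name, grouped by role. Each marker is 1 time point, grey lines span the 4 times, and dotted lines mark the edges of the rule at -2 and -1, between which all markers lie by choice; AQP3 spans 0.05 and DLX1 0.93.

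Members of the lateral line hair cells and of nerve endings form the first group by role, 15 genes with a median log2 ratio of -1.36. The roles were assigned from general knowledge after the members were seen. OTOF (ENSDARG00000020581), which encodes otoferlin, stood at 1567, 9301, 13492 and 12191 normalized counts in controls at 48, 60, 72 and 96 hpf and at 542, 4058, 5105 and 4263 in BkF. By the rule each BkF value lay below the control of its time, but the groups overlapped, because both started low at 48 hpf. The mean log2 ratio was -1.41 ± 0.15. In bulk tissue, fewer cells of a type and less RNA per cell cannot be told apart.

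The calcium buffer gene pvalb8, a parvalbumin of zebrafish hair cells, stood at 1586, 21528, 54949 and 45381 in controls and at 775, 7483, 16053 and 19755 in BkF, with a mean ratio of -1.38 ± 0.33. The gap was narrowest at 48 hpf, and the control level at 48 hpf lay below the BkF levels of later times. The S100 calcium-binding gene s100t, also known from zebrafish hair cells, stood at 4216, 26200.4, 30210.4 and 29291 in controls and at 1474, 11755, 14356 and 8182 in BkF (-1.40 ± 0.35). Its BkF level was lower at 96 than at 72 hpf, while its control level was nearly level between these times.

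POU4F3 encodes a transcription factor that mammalian hair cells need to survive, and it stood at 16.1, 90.9, 127 and 100 in controls and at 6.18, 34, 52 and 48.6 in BkF (-1.24 ± 0.15). Its groups overlapped in the same way, through the control at 48 hpf. A zinc finger repressor gene that mouse hair cells also need, GFI1, stood at 224, 373, 372 and 332 in controls and at 107, 180.1, 158 and 103 in BkF (-1.25 ± 0.29). There all 4 BkF values lay below the 4 control values. GIPC3, mutated in a human deafness, had a mean ratio of -1.23 ± 0.14, and ankrd24, which encodes a protein at the base of the hair bundle in mice, -1.21 ± 0.17.

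Genes of vesicle traffic, adhesion and peptides stood beside them. The ectonucleotidase gene ENTPD3, whose product splits ATP outside the cell, stood at 1265, 3460.3, 3434 and 3138 in controls and at 615, 1644, 1275 and 851 in BkF (-1.36 ± 0.39). Its BkF level went down from 60 to 96 hpf while controls changed little, and its ratio had a range of 0.84. DNAJC6, the auxilin that uncoats clathrin vesicles, had a mean ratio of -1.36 ± 0.24, and DOC2B, a calcium sensor of vesicle release, -1.52 ± 0.18. CNTN5, a contactin adhesion gene of neurons, went down with time in both groups, at 2229, 1744, 1253 and 1164 in controls and 1085, 598, 445 and 426 in BkF (-1.38 ± 0.23). NPBWR2, a neuropeptide receptor gene, had -1.52 ± 0.44, grp, a bombesin-like peptide gene, -1.21 ± 0.22, the POU gene pou4f4 -1.37 ± 0.33 and the kinase gene CAMK1 (ENSDARG00000029474) -1.17 ± 0.10. The other CAMK1 (ENSDARG00000060116), with a mean of 33.9, had -0.32 ± 0.71 and did not pass (adjusted p = 0.459, limma).

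The other genes of a lateral line and hair cell list show the setting of these members. The list has 39 measured genes, of which 4 are members and 3 more, LOXHD1 (ENSDARG00000094738), CXCR4 (ENSDARG00000057633) and SLC17A8, met the rule but were dropped by symbol. This LOXHD1 stood at 40.1 to 158 in controls. The other LOXHD1 (ENSDARG00000074638), at 1386 to 2406 in controls, had -0.22 ± 0.17 and did not pass (adjusted p = 0.0761, limma). Nor did the other CXCR4 (ENSDARG00000041959), with 0.19 ± 0.65 (adjusted p = 0.555, limma). Of the other 32 genes 18 were lower and 4 higher in BkF (limma with time point as a block, adjusted p under 0.05), against 17.4% lower and 16.5% higher of all 21950 genes tested. Their median log2 effect was -0.69, against -0.01 for all genes tested. These counts did not include any gene that met the rule, and leaving those genes out removes low ratios from the list.

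Among the 32, ATOH1, the gene of the factor that specifies hair cells, had an effect of -1.26 ± 0.37 (adjusted p = 0.00297, limma), and MYO7A, a myosin gene of the hair bundle, -1.05 ± 0.27 (adjusted p = 0.00373, limma). The tip link cadherin genes CDH23 and pcdh15b had -1.35 ± 0.92 (adjusted p = 0.0441, limma) and -0.94 ± 0.11 (adjusted p = 0.00286, limma). CDH23 was low in all samples, from 3.53 in BkF at 48 hpf to 55.9 in controls at 72 hpf. The other entry of that protocadherin, PCDH15, had -0.82 ± 1.51 and did not pass (adjusted p = 0.284, limma). Nor did TMC1 (-0.07 ± 0.33, adjusted p = 0.814, limma) or tmie (0.22 ± 0.44, adjusted p = 0.501, limma). USH1C, which encodes harmonin, a scaffold of the hair bundle, went the other way with 3.06 ± 0.49 (adjusted p = 0.000317, limma). The other identifier of the otoferlin symbol, OTOF (ENSDARG00000030832), had -0.95 ± 0.51 (adjusted p = 0.0128, limma). Summed over the 32 genes, control counts ranged from 48602 to 54039.7 and BkF counts from 41379 to 43867, and no gene of the list was at 0 in any sample. Genes with high counts weigh most in this sum. In controls ACKR3 (ENSDARG00000058179) stood at 9944 to 11891 and EYA1 at 6404 to 7338, against 294 to 489 for ATOH1. The sum is therefore not read as a measure of hair cell RNA. A neuron and synapse list had 5 lower and 4 higher of 50 genes and a median of 0.03. Those counts were 2 and 1 without 60 hpf and again without 72 hpf, the higher count was 2 without 48 hpf and 9 without 96 hpf, and the lower count was 2 with the same total in every sample. Its sum ranged from 24218 to 35449 over the controls and from 22780 to 39720.0 over the BkF samples. The part of cell number in the members' ratios was not tested.

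**Figure D2:**
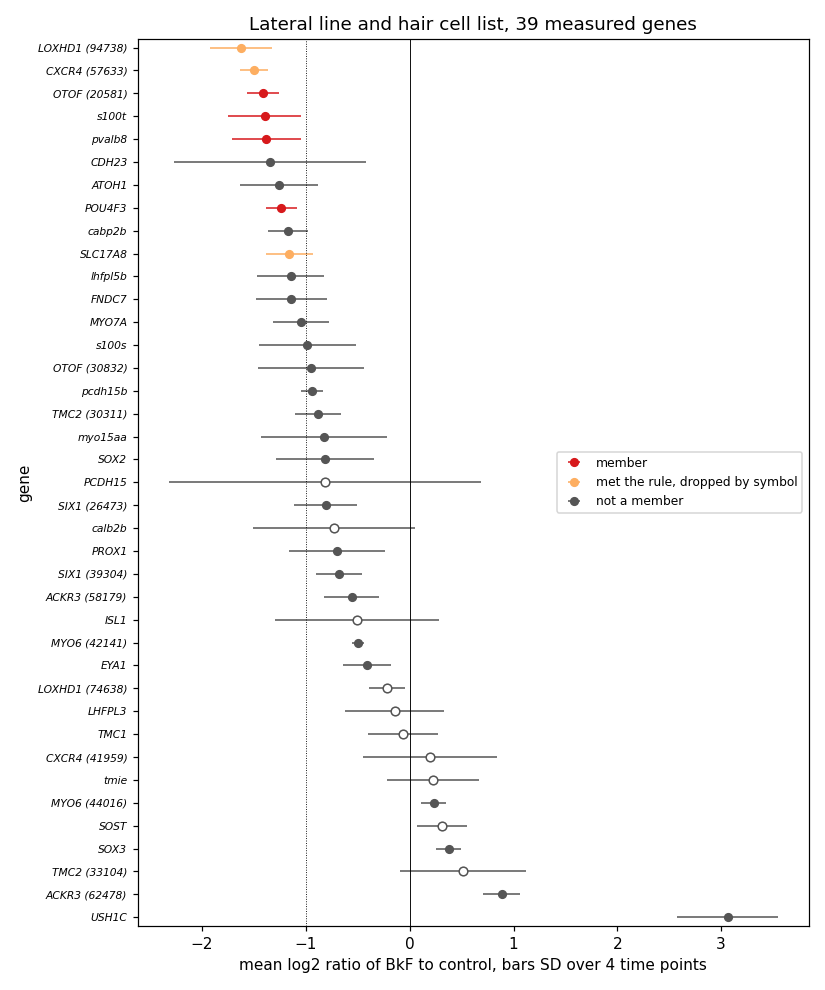
Mean log2 ratio of BkF to control for 39 measured genes of the lateral line and hair cell list, with bars of 1 SD over 4 time points. Red marks members and orange genes dropped by symbol, both chosen by this ratio; open circles are genes that did not pass the limma test, the dotted line marks -1, and bracketed digits end the identifier of a shared symbol. Most grey points lie left of 0, and USH1C lies at 3.06.

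Genes of lipid mediators and of protease-activated receptors form the next group, 9 members with a median ratio of -1.35. In all of them the 4 BkF values lay below the 4 control values, as in 89 of all 110 members and 14.6% of all genes with a mean of 50 or more, and since the rule bears on this count nothing is read from it. ALOX5 (ENSDARG00000057273) encodes the lipoxygenase that opens leukotriene synthesis, and it stood at 1238, 877, 607 and 764 in controls and at 569, 398, 285 and 218 in BkF (-1.29 ± 0.35). At 48, 60 and 72 hpf the ratio stayed near -1.1, and at 96 hpf it was -1.81. The receptor gene ltb4r2b, for leukotriene B4, stood at 667, 620.0, 555 and 658 in controls and at 257, 244, 156 and 208 in BkF (-1.55 ± 0.23). Controls of this receptor gene varied little with time.

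For prostaglandin E2, the receptor gene ptger1a stood at 759.9, 841, 853 and 728 in controls and at 377, 330.2, 311 and 239 in BkF (-1.35 ± 0.25). The gap widened at each time, since BkF values went down while controls stayed within a narrow band. PTGER4 (ENSDARG00000035415), another receptor gene for it, stood at 176, 170.3, 143 and 149.8 in controls and at 55.3, 66.8, 59.1 and 62.1 in BkF (-1.38 ± 0.19). The dehydrogenase gene HPGD, whose product inactivates prostaglandins, stood at 1440.2, 1391, 1301 and 1315 in controls and at 645, 511, 429 and 388 in BkF (-1.49 ± 0.26). These receptor genes and the gene of a breakdown enzyme were low in the same samples because the rule chose them so, and nothing is read from that.

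F2RL3 encodes a thrombin receptor that is opened by cleavage, known from human platelets, and it stood at 373, 397, 357 and 343 in controls and at 122, 134, 115 and 93.3 in BkF (-1.67 ± 0.14). F2R (ENSDARG00000086236), of the same receptor family, stood at 196, 213, 188 and 180.1 in controls and at 85.5, 92.6, 93.1 and 87.3 in BkF (-1.11 ± 0.10). Of the 3 other identifiers with the F2R symbol that were tested, 2 went the other way. F2R (ENSDARG00000060012) was higher in BkF by 1.30 ± 0.17 (adjusted p = 0.000789, limma) and F2R (ENSDARG00000059507) by 0.60 ± 0.08 (adjusted p = 0.00264, limma), while F2R (ENSDARG00000090041) had -0.50 ± 0.17 (adjusted p = 0.0360, limma). The monoacylglycerol lipase gene mgll had -1.25 ± 0.17, and pparaa, a nuclear receptor gene for fatty acids, -1.22 ± 0.17.

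A list of epidermal lipid and barrier enzymes holds ALOX5 as its 1 member. Of its other 28 genes 9 were lower and 5 higher, with a median of -0.05. The other ALOX5 (ENSDARG00000043085) had -2.11 ± 0.75 (adjusted p = 0.00365, limma) and the lipoxygenase gene alox12 -1.04 ± 0.42 (adjusted p = 0.00507, limma). PTGS2 (ENSDARG00000010276), a cyclooxygenase gene at the head of prostaglandin synthesis, was higher by 1.92 ± 0.60 (adjusted p = 0.00215, limma). It stood at 1019 to 1412 in controls. The other PTGS2 (ENSDARG00000004539), at 13729 to 19781 in controls, had 0.18 ± 0.23 and did not pass (adjusted p = 0.177, limma). Nor did the cyclooxygenase gene ptgs1, with -0.13 ± 0.28 (adjusted p = 0.401, limma). The count of higher genes over the whole list depended on the scale and on single times: it was 13 with the same total in every sample, 2 without 60 hpf and 3 without 72 hpf.

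**Figure D3:**
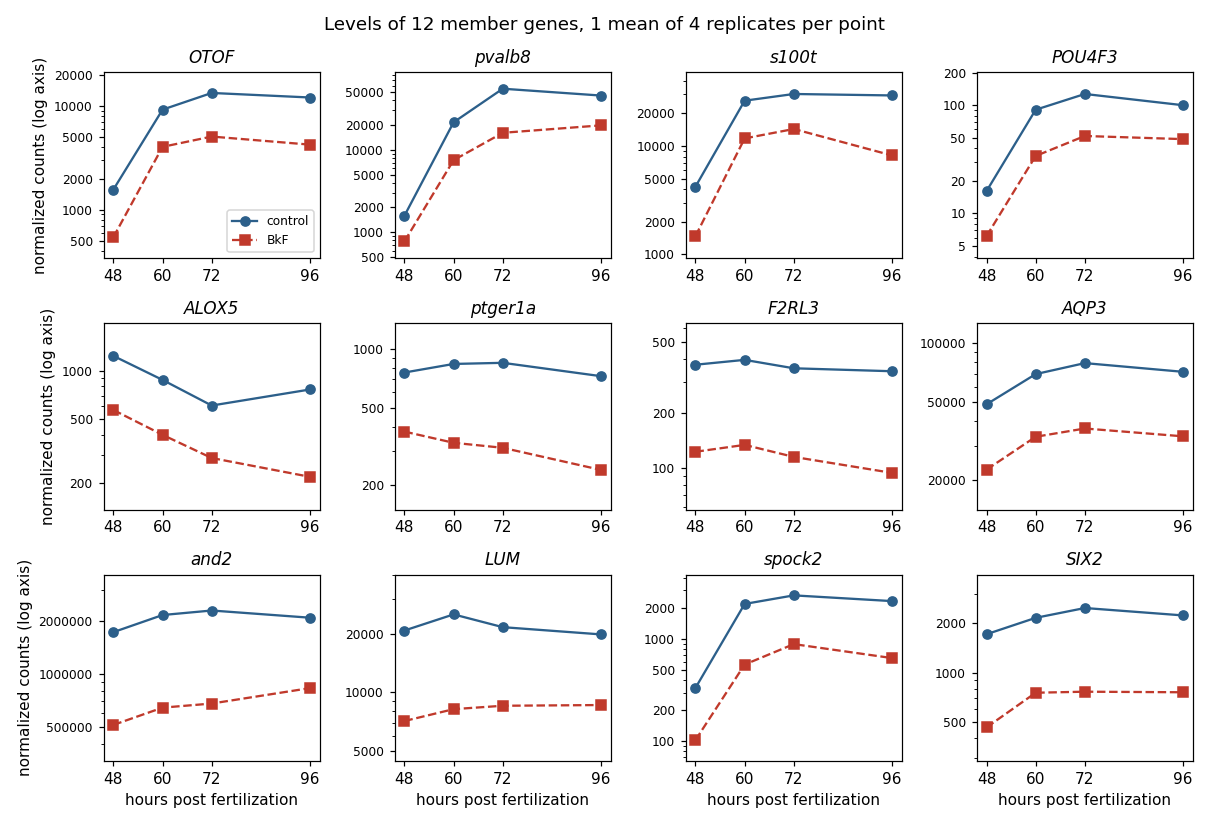
Normalized counts of 12 members in controls (blue circles) and BkF (red squares) at 48, 60, 72 and 96 hpf, each on a log axis of its own, 1 mean of 4 replicates per point. OTOF, pvalb8, s100t, POU4F3 and spock2 climb steeply from 48 to 60 hpf in both groups, and ALOX5 declines from 48 to 72 hpf in both. The lines do not cross in any panel, which holds by choice of the members.

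Epithelial genes of the membrane, of actin and of secreted proteins number 14, with a median ratio of -1.32. AQP3, a water and glycerol channel gene of skin, stood at 48727, 69557, 79172 and 71447 in controls and at 22578, 33253, 36658 and 33427 in BkF. Its BkF values all lay below the controls, and BkF followed the course of the controls so closely that the ratio was -1.10 ± 0.02. COTL1, which encodes coactosin-like protein, a partner of actin filaments, stood at 98451, 91055, 66881 and 73089 in controls and at 45221, 44853, 32859.9 and 29193 in BkF (-1.12 ± 0.14). In human leukocytes its product also binds the lipoxygenase that ALOX5 encodes.

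CA6, a secreted carbonic anhydrase gene, stood at 18943, 22102, 24312 and 23189 in controls and at 7980.3, 8536, 7492 and 6983 in BkF (-1.51 ± 0.24). Its ratio became lower at each time, since controls were higher from 60 hpf on, while BkF values at 72 and 96 hpf lay below that at 48 hpf. The vinexin gene sorbs3, of cell adhesion sites, had -1.10 ± 0.06, the semaphorin gene sema4e -1.35 ± 0.06 and ppp1r14aa, an inhibitor of myosin phosphatase, -1.23 ± 0.07. Like AQP3 these were among the members with the narrowest range of ratio, 0.13 to 0.16. The pore protein gene gsdmea of the gasdermin family, whose mean ratio of -1.10 ± 0.08 was near the edge, stood at 531, 1252, 1312 and 1093 in controls and at 236, 555, 652 and 529 in BkF. The other named members were acte1, an actin gene (-1.50 ± 0.23), anxa5a, an annexin gene (-1.46 ± 0.25), and PRLR, a prolactin receptor gene (-1.45 ± 0.16). With them stood lad1, a ladinin gene of basement membranes (-1.35 ± 0.30), lgals3bp.1 (-1.35 ± 0.16), the prominin gene prom2 (-1.29 ± 0.11) and the tetraspanin gene TSPAN33 (-1.28 ± 0.12).

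Markers of the epidermis moved beside this group. Of 36 genes of a periderm and keratinocyte list, 1, krt5, met the rule and was dropped. Of the other 35 genes 21 were lower and 3 higher, with a median of -0.42, and krt4, a keratin gene of the outer layer, had -2.06 ± 0.54 (adjusted p = 0.00302, limma). The 3 higher genes became 6 with the same total in every sample and 1 without 60, 72 or 96 hpf. Summed over these 35 genes, control counts ranged from 6846016 to 8768532 and BkF counts from 1883443 to 3778052. A few genes dominate this sum. The gene krt4 alone made up 20.0 to 41.6% of the whole list. Without krt4 the sum ranged from 4162493 to 5036421 over the controls and from 1480873 to 2463243 over the BkF samples. In controls cyt1 still stood at 1449624 to 1598006 and cyt1l at 1084684 to 1384730. The pan-epithelial gene epcam ranged from 62557 to 66525 over the controls and from 52852 to 57349 over the BkF samples. The part of epidermal cell number in the ratios of AQP3, CA6 and the others was not tested.

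Matrix and fin fold genes form a group of 13, with a median ratio of -1.49. The actinodin gene and2, which encodes a fibre protein of the fin fold, stood at 1731428, 2164660.4, 2296307 and 2090017 in controls and at 515328, 645699, 681327 and 833611 in BkF. The BkF values all lay below the controls, and the gap was narrowest at 96 hpf (-1.64 ± 0.21). This 1 gene made up 80.1 to 81.0% of the members' summed counts in controls and 73.7 to 80.9% in BkF. Without it the members' sum ranged from 426206 to 537557 over the controls and from 183792 to 219184 over the BkF samples. Its paralogs had other ratios, with and3 at -1.16 ± 0.29 (adjusted p = 0.00227, limma). The paralog and1, between 959702 and 1068481 in controls and between 660278 and 919696 in BkF, did not pass. Its BkF values nevertheless all lay below its control values.

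LUM encodes lumican, a proteoglycan that spaces collagen fibrils, and it stood at 20746, 25089.7, 21584 and 19815 in controls and at 7137, 8209.9, 8545 and 8617 in BkF (-1.42 ± 0.19). The groups did not overlap. The testican gene spock2, a matrix proteoglycan, had, with rasgrp4, the lowest mean ratio among named members, -1.77 ± 0.17, at 333, 2209, 2680.5 and 2355 in controls and 103, 563, 893 and 652 in BkF. The control at 48 hpf lay below the later BkF values. The laminin gene lamb4 stood at 10043, 10194, 8760.3 and 8947 in controls and at 3622, 3261, 2669 and 2253 in BkF (-1.70 ± 0.22), with a ratio that became lower at each time.

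SMOC2, a matricellular calcium-binding protein gene, stood at 1527, 1183, 1102 and 1137 in controls and at 508, 445, 384 and 290.0 in BkF (-1.62 ± 0.24). VIT, the vitrin gene, stood at 11345, 10866, 9578 and 9699 in controls and at 4798, 3793, 3166 and 2949 in BkF (-1.52 ± 0.20). In both genes the groups did not overlap and the ratio was lowest at 96 hpf. The surface glycoprotein gene thy1 stood at 24440.5, 19718, 14673 and 17724 in controls and at 10296, 8314, 5809 and 5034 in BkF (-1.41 ± 0.27), and only BkF went down from 72 to 96 hpf. Proteases and their kin were pcsk5a, a proprotein convertase gene (-1.36 ± 0.07), MMP28, a metalloproteinase gene (-1.35 ± 0.28), and paplna, a papilin gene (-1.49 ± 0.10). The secreted peptide gene ECRG4 (ENSDARG00000088717) had -1.55 ± 0.15, whereas the other identifier of that symbol, ECRG4 (ENSDARG00000056087), had -0.10 ± 0.33 and did not pass (adjusted p = 0.571, limma). The growth factor carrier gene fgfbp2a had -1.40 ± 0.15 and the kinase gene FJX1 -1.32 ± 0.21.

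Of a collagen and matrix list of 53 genes, LUM was the 1 member, and of the other 52 genes 23 were lower and 8 higher, with a median of -0.36. The higher count was 5 without 60 hpf and 4 without 72 hpf. Among these genes keratocan, KERA, of the same proteoglycan family as lumican, had -3.08 ± 0.19 (adjusted p = 2.26e-05, limma) and PRELP -1.31 ± 0.27 (adjusted p = 0.00143, limma). The fin fold and fin mesenchyme list had 13 lower and 14 higher of its 47 genes other than and2, with a median of 0.06. There the fin growth factor gene FGF20 (ENSDARG00000007356) was higher by 3.88 ± 0.12 (adjusted p = 2.81e-05, limma). The basement membrane list had 12 lower and 5 higher of 24 genes that did not meet the rule.

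Transcription factors and genes of Wnt reception number 7, with a median of -1.41. In all of them the groups did not overlap, as in 89 of all 110 members and 14.6% of all genes with a mean of 50 or more. SIX2, a homeobox gene of mesenchymal progenitors in mammals, stood at 1714, 2158, 2477 and 2232 in controls and at 464, 754, 765 and 759 in BkF (-1.66 ± 0.17). Its ratio was lowest at 48 hpf. FZD8 (ENSDARG00000045444), a Frizzled receptor gene for Wnt ligands, stood at 1835, 2506, 2883 and 2424 in controls and at 841, 1021, 988 and 920.3 in BkF (-1.34 ± 0.18). DVL1 (ENSDARG00000055552) encodes a Dishevelled, the relay inside the cell, and stood at 174, 353, 376 and 365 in controls and at 67.6, 118, 151 and 128 in BkF (-1.43 ± 0.13). The other DVL1 (ENSDARG00000010515), with a mean over the 8 samples of 644 against 216, had only -0.29 ± 0.11 (adjusted p = 0.0297, limma). The other FZD8 (ENSDARG00000038569), with a mean of 42.9, had -1.15 ± 0.55 (adjusted p = 0.0191, limma).

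DLX1, a homeobox gene, had the widest range of ratio of all members, with 419, 303, 250.1 and 273 in controls and 207, 142, 92 and 69.8 in BkF (-1.37 ± 0.43). The ratio went from near -1 at 48 hpf to near -2 at 96 hpf. The Krüppel-like factor gene klf2b had -1.41 ± 0.17, mab21l2 -1.54 ± 0.34 and bcl11ba -1.30 ± 0.12. In a Wnt list of 53 genes, of which FZD8 (ENSDARG00000045444) was the 1 member, 20 of the other 52 genes were lower and 16 higher. The Wnt target gene LEF1 was higher by 2.01 ± 0.11 (adjusted p = 3.44e-05, limma) and WNT7A (ENSDARG00000044827) had -1.90 ± 0.21 (adjusted p = 0.000154, limma). Without 72 hpf the lower count of the whole list was 12 in place of 21.

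Genes known from leukocytes and antigen presentation number 9, with a median of -1.40. The Ras exchange factor gene rasgrp4, known from mammalian mast cells, stood at 517, 929, 1111 and 1043 in controls and at 186, 259, 284 and 295 in BkF (-1.77 ± 0.21), and its groups did not overlap. FES, a tyrosine kinase gene, stood at 435, 528, 572 and 636 in controls and at 211, 242, 244 and 287 in BkF (-1.13 ± 0.08). The GTPase regulator gene def6c had -1.12 ± 0.08, VAV3, an exchange factor gene, -1.49 ± 0.32, the tetraspanin gene cd37 -1.35 ± 0.20 and rubcnl, of autophagy, -1.40 ± 0.29.

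Among genes of class I antigen presentation, mhc1haa stood at 1934, 1581, 1048 and 1499.9 in controls and at 838, 598, 469.8 and 396 in BkF (-1.42 ± 0.35). The ratios of mhc1lia and mhc1lja were -1.37 ± 0.36 and -1.48 ± 0.35. Reads that match several genes of a family are shared out by estimation, which leaves single values of such genes uncertain. How alike these genes are in sequence was not examined. A leukocyte and inflammation list, of which none is a member, went the other way: 15 of 40 genes were higher and 2 lower, with a median of 0.26. The sum of that list ranged from 94455 to 130879 over the controls and from 165284 to 426157 over the BkF samples, and no gene of it was at 0. The apolipoprotein gene apoeb alone made up 56.9 to 70.3% of that sum, and without it the sum ranged from 40675 to 47188 over the controls and from 64809 to 126563 over the BkF samples. Inflammation genes of the list are in that sum too. Among them MMP9 ranged from 4393 to 7850 over the controls and from 13370 to 36615 over the BkF samples. For mmp13a these were 550 to 869 and 2635 to 20890, and for SOCS3 (ENSDARG00000026611) 2151 to 2704 and 14600 to 18562. The pan-leukocyte gene ptprc was higher by 0.38 ± 0.22 (adjusted p = 0.0436, limma), while the lysozyme gene lyz (-0.16 ± 1.05) and csf1rb (-0.19 ± 0.29) did not pass. The part of leukocyte number in the members' ratios was not tested.

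The remaining 8 named members had a median of -1.24. The heme-binding gene soul5 stood at 547, 1466, 1929.8 and 1822 in controls and at 223, 420.1, 511 and 624 in BkF (-1.64 ± 0.28). BOK (ENSDARG00000052129), of the BCL2 family of cell death regulators, stood at 2899, 2890.3, 2569 and 2516 in controls and at 1049, 891, 794 and 867 in BkF (-1.60 ± 0.12). The kinase gene clk4a, which acts on splicing factors, stood at 10136, 12098, 14507 and 15024 in controls and at 4855, 5554, 5752 and 6710.3 in BkF (-1.17 ± 0.12). FAM151A had -1.14 ± 0.03, TP53I11 (ENSDARG00000006025) -1.30 ± 0.16, the fucosyltransferase gene fut9b.3 -1.26 ± 0.21, HECA -1.22 ± 0.19 and cusr -1.19 ± 0.18. The other TP53I11 (ENSDARG00000069430) had -0.16 ± 0.08 and did not pass (adjusted p = 0.0981, limma). Nor did the other BOK (ENSDARG00000008807), with a mean of 19.7 and a ratio of -0.46 ± 0.83 (adjusted p = 0.372, limma). Among the 35 members with a clone name or no symbol, zgc:101810 stood at 22108, 22164, 19024 and 18415 in controls and at 10959.7, 10131, 8039 and 7129.5 in BkF (-1.19 ± 0.15). The 14 clone-named members had a median of -1.41 and the 21 with no symbol -1.45.

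The course of the controls over time is a measure that the rule did not use directly. Because the rule bounds the ratio at every time, it holds the course in BkF near that in controls. The likeness of these courses follows from the choice of members. In controls 26 of 110 members were at least 2-fold higher at 96 than at 48 hpf, 23.6% against 4.83% of all genes with a mean of 50 or more. None was at least 2-fold lower, against 1.49%. In BkF 23 members were at least 2-fold higher, against 5.41%, and 5 were at least 2-fold lower, against 5.38%. Those 5 were thy1, CNTN5, mhc1haa, ALOX5 (ENSDARG00000057273) and DLX1. At least 2-fold higher in both were 20 members. Control and BkF each have 1 mean per time, so these counts are descriptions.

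The 26 were lowest at 48 hpf in controls in every case, and 19 of them were highest at 72 hpf. By role they are 6 of 15 hair cell and nerve genes, 4 of 14 epithelial, 2 of 13 matrix and 2 of 9 leukocyte genes. Also among them are 1 of 7 genes of transcription factors and Wnt reception and 0 of 9 of the lipid mediator group. The rest are 3 of 8 other named members, 4 of 14 with a clone name and 4 of 21 with no symbol. The annexin gene anxa5a stood at 107, 2135, 4528 and 3954 in controls and at 39.2, 657, 1489 and 1810.3 in BkF, 36.6-fold higher at 96 than at 48 hpf in controls and 45.1-fold in BkF. The same fold was 28.6 and 25.4 for pvalb8, 7.77 and 7.85 for OTOF (ENSDARG00000020581), 7.06 and 6.29 for spock2, 6.95 and 5.55 for s100t, and 5.91 and 6.91 for POU4F3. Between these times the ratio still varied within the edges of the rule, for s100t over a range of 0.77 and for pvalb8 of 0.74. The median mean ratio was -1.39 in the 26 and -1.40 in the other members.

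The 4 BkF values lay below all 4 control values in 89 of 110 members, a count the rule itself bears on. All 21 members whose groups overlapped were among the 26. Under the rule an overlap needs controls that differ at least 2-fold between times, so this match follows largely from the choice. Levels in controls were highest at 48, 60, 72 and 96 hpf in 31, 23, 43 and 13 members. As shares these are 28.2, 20.9, 39.1 and 11.8%, against 39.4, 15.7, 26.6 and 18.3% of all genes with a mean of 50 or more.

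**Figure D4:**
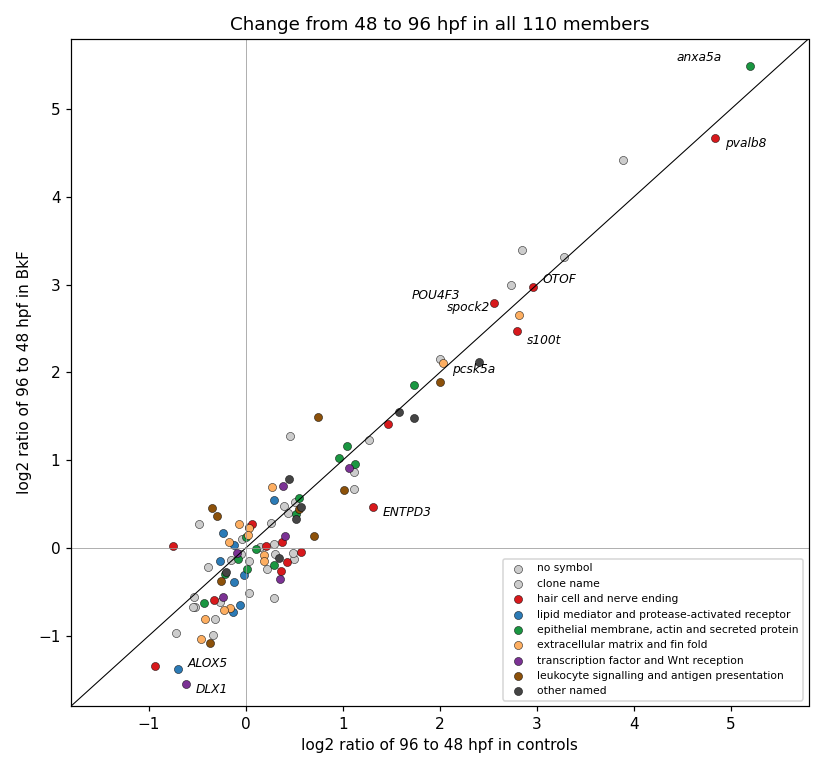
Log2 ratio of 96 to 48 hpf in controls (x axis) and in BkF (y axis) for all 110 members, coloured by role, with the line of equal change. The points lie near the line by choice, since the rule bounds the ratio at both times. They run from ALOX5 and DLX1 at lower left to anxa5a at upper right, and ENTPD3 and ALOX5 lie below the line.

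A linear trend with hpf, fitted with limma over both treatments, called 0 of 110 members at an adjusted p under 0.05, against 0.00456% of all 21950 genes tested (1 gene). At an unadjusted p under 0.05 it took 52 members, 47.3%, against 29.2% of all genes. The rule limits how far the ratio of a member can vary over time, and that variation enters the residual of this test, so the members' count cannot be read against the share of all genes. The same holds for the next 2 fits over both treatments, whose counts are given as descriptions. With time point as a factor, an alternative added after the data were seen, 27 members were called, with 3.85% of all genes.

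Without the 96 hpf samples the linear trend called 32 members rising and 15 falling, with 9.45% and 8.47% of all genes, so the count of calls rests on that time point. The slope in log2 per 24 hours was then 5.30 for anxa5a, 4.74 for pvalb8, 3.17 for OTOF (ENSDARG00000020581) and 2.89 for POU4F3. The tetraspanin gene cd37 had 2.25 and pcsk5a 2.13. The falling members included CNTN5 at -1.06, ALOX5 (ENSDARG00000057273) at -1.01, DLX1 at -0.95 and thy1 at -0.78. Of the 15 hair cell and nerve genes 6 rose and 1 fell, of the 14 epithelial genes 7 rose and 2 fell, and of the 13 matrix genes 2 rose and 4 fell. In the BkF samples alone 3 members rose and 11 fell, against 4.33% and 6.07% of all genes. In the control samples alone 0 members passed, but there 0 of all genes were called rising, so nothing is read from it.

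By gene order in RefSeq's annotation, 2 pairs of members were near neighbours. The genes anxa5a and fgfbp2a have 1 protein-coding gene between them, and pparaa and def6c have 2.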

How the data were processed

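RNA sequencing of 8 samples was used. Each deposited signal value is a normalized count that the authors averaged over 4 biological replicates, so the depth is unknown and no counting interval is given. Per the submitters' processing notes, FastQC, Trimmomatic, Salmon, DESeq2 and the build Zv9 were used; tool versions are not given in the sources used here. Libraries were stranded, per the labels' protocols. Because Salmon divides reads among near-identical genes, multigene families are uncertain.

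The members, gene lists and tests were chosen with earlier results of these data known. Of 24345 identifiers 18028 had a symbol in a name table. List genes were matched by their own symbol (649) or, without the paralog letter, in capitals (290), while 192 had no match. Only the lists that bear on a role are described, of 28 in all. Effects of BkF (time point as a block) and linear trends with hpf (treatment as a factor) were fitted on log2(value + 1) by limma (version 3.58.1; R 4.3.3), with an intensity trend, over 21950 genes with a mean of 10 or more, two-sided and Benjamini-Hochberg adjusted over all of them. A fold change on this scale understates the change of low genes. With 1 value per condition, the p-values measure the spread between time points, not between animals, and the scripts were tested on simulated data. The rule for naming took members of the lists, those with the highest means, with the lowest ratios, with ratios nearest -1, with the smallest and largest range, and those at the edges. Other members, and the genes named from lists, were chosen after their values were seen. Alternatives were a pseudocount of 10, other filters on the mean, the same total in every sample, quantile normalization, no intensity trend, each treatment alone, and leaving out each time point. Promoter and protein sequences were not used here. Plots were made in Python 3.11.15 using matplotlib 3.10.9.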

Additional observations from a re-analysis of the deposited data

How the results depend on the processing

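No paired analysis was possible because each group holds 1 sample, so there are no replicate numbers to pair; the BkF effect has the time point as its block. Against 110 members, the rule took 58 genes with the same total in every sample, and 108 (107 of them members) when its window was moved by the median shift, an alternative added after the data were seen. Moving the window by that shift largely undoes the rescaling, so this near match was fixed in advance and nothing is read from it. The rule took 133 to 213 genes with 1 time point left out, where fewer ratios must meet it, 103 with a pseudocount of 10, 93 after quantile normalization, and 126 and 81 with a mean of 10 or more and of 200 or more. For the BkF effect 3624 genes were higher and 3810 lower; with the same total these were 7946 and 2151, and with 1 time point left out 1664 to 3427 and 1830 to 3480. The linear trend called 1 gene rising and 0 falling. The rising count was 0 with no intensity trend, 0 in controls alone, 950 in BkF alone and 0 to 2075 with 1 time point left out. The falling count was 1332 in BkF alone and 0 to 1859 with 1 time point left out. Among members 3 rose and 11 fell in BkF alone, and 0 to 32 rose and 0 to 15 fell with 1 time point left out, the highest counts each without 96 hpf. With time point as a factor, also added later, 845 genes and 27 members passed. Apart from fewer times or samples in a fit, the cause of these differences was not tested. With the same total, the mean ratio moved by more than its SD in 17 of 33 named members. With a pseudocount of 10 it did so in 2. No direction changed in these, which the rule fixed in advance by holding every ratio at or below -1. With 1 mean per condition, a member's ratio has no replicate error, and depth limits on the lowest members are unknown.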
